A study of Mus musculus with 12 samples.

Results

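The genes described here encode the parts of the NF-kB system that the deposited gene table lists under 10 chosen symbols, read across 4 sorted cell populations of the mouse embryo. They are the cytokine genes Tnf and Il1b, the 5 subunit genes Nfkb1, Nfkb2, Rel, Rela and Relb, and the feedback genes Nfkbia, Bcl3 and Tnfaip3. All 10 were found among the 33531 genes of the table. All 10 also passed the filter on low values, which asked for 3 of the 12 libraries to reach an FPKM of 1, together with 13278 genes in all. Tnf and Il1b passed it through the HC libraries, where each reached FPKM 1 in 6 libraries, while in EC that level was reached in 0 libraries by Tnf and 1 by Il1b. Both were thus tested only because of their level in HC. FPKM is the number of fragments scaled to transcript length and to the mapped fragments of the library, so levels can be set beside each other between genes.

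The 4 populations were HC GFP+, HC GFP-, EC GFP+ and EC GFP-, with 3 libraries each. HC are hematopoietic cluster cells, sorted as CD31+ CD144+ ESAM+ c-Kit+, and EC are endothelial cells with the same surface proteins but negative for c-Kit. All came from the large arteries (dorsal aorta, umbilical and vitelline) of 122 untreated embryos at embryonic day 11.5, collected as a whole. The mothers were C57BL/6 x 129S1/SVImJ F1 females, the fathers carried Tg(Ly6a-GFP), the strain label reads B6129S, and every embryo used was positive for the transgene. GFP therefore reports the activity of the Ly6a-GFP transgene and not the Ly6a protein itself. The sort gave 53000 HC GFP+, 413000 HC GFP-, 377000 EC GFP+ and 791000 EC GFP- cells, which were pooled into 3 independent biological samples per population, and the cells in each pool are not stated.

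Kit, the gene for the sorted receptor c-Kit, measured 33.2 to 39.2 FPKM in HC GFP+ and 19.1 to 25.8 FPKM in HC GFP- libraries, against 13.3 to 14.5 FPKM in EC GFP+ and 12.6 to 18.6 FPKM in EC GFP- libraries. The EC libraries, sorted as negative for the c-Kit protein, thus held Kit message. FPKM sums per library ran between 555675 and 691948, and log2 values of libraries of the same population correlated at 0.956 to 0.979 over 12 pairs, against 0.899 to 0.968 over the 54 other pairs. Relative depth, read from the spacing of low values, lay between 0.688 and 1.1 of that of HC GFP+ replicate 1, and absolute depth is unknown. The sums of 10 endothelial marker genes were 2711 to 3046 FPKM in HC GFP+, 2309 to 3130 FPKM in HC GFP-, 3963 to 4176 FPKM in EC GFP+ and 2593 to 3247 FPKM in EC GFP- libraries. The list holds Pecam1, Cdh5 and Esam, the genes of the sorted proteins CD31, CD144 and ESAM. Its presence in every population thus follows in part from the sort and does not show the vessel of origin.

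NF-kB is a family of transcription factor dimers built from the products of Nfkb1, Nfkb2, Rel, Rela and Relb. In resting cells inhibitor proteins such as the product of Nfkbia hold the dimers in the cytoplasm. Receptors for tumor necrosis factor, interleukin-1 and microbial products activate kinases that lead to destruction of the inhibitor, after which the dimers enter the nucleus and raise transcription of cytokines and of their own inhibitors. In the embryonic arteries, inflammatory cytokine signalling is known to take part in the formation of blood stem cells from endothelium.

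Within each GFP class every HC library exceeded every EC library for Tnf, Il1b and Tnfaip3. No difference of the subunit genes other than Rel passed the test, and every GFP+ library exceeded the GFP- libraries of the same cell type for Bcl3. Of all tested genes, 19.6% stood higher without overlap in HC GFP+ than in EC GFP+, and 13.4% in HC GFP- than in EC GFP-. For GFP+ above GFP- the shares were 13% in HC and 14.8% in EC. Tnf and Il1b entered the test only through their level in HC. Tnf was called higher in HC GFP+ than in EC GFP+ cells and in HC GFP- than in EC GFP- cells. Il1b, Rel and Tnfaip3 were called higher in HC GFP+ than in EC GFP+ cells. Bcl3 was called higher in EC GFP+ than in EC GFP- cells, and its difference between HC GFP+ and HC GFP- cells, of about the same size, narrowly missed the threshold. Calls are an adjusted p under 0.05 in a limma fit of log2(FPKM + 1) to all 12 libraries, and each fold change is on that scale, which understates changes of genes at low levels. In pooled cells, fewer cells of a type and less RNA per cell cannot be told apart. The comparisons share libraries: each of the 4 populations stands in 2 of the 4 comparisons between populations, so these are not independent of each other.

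**Figure D1:**
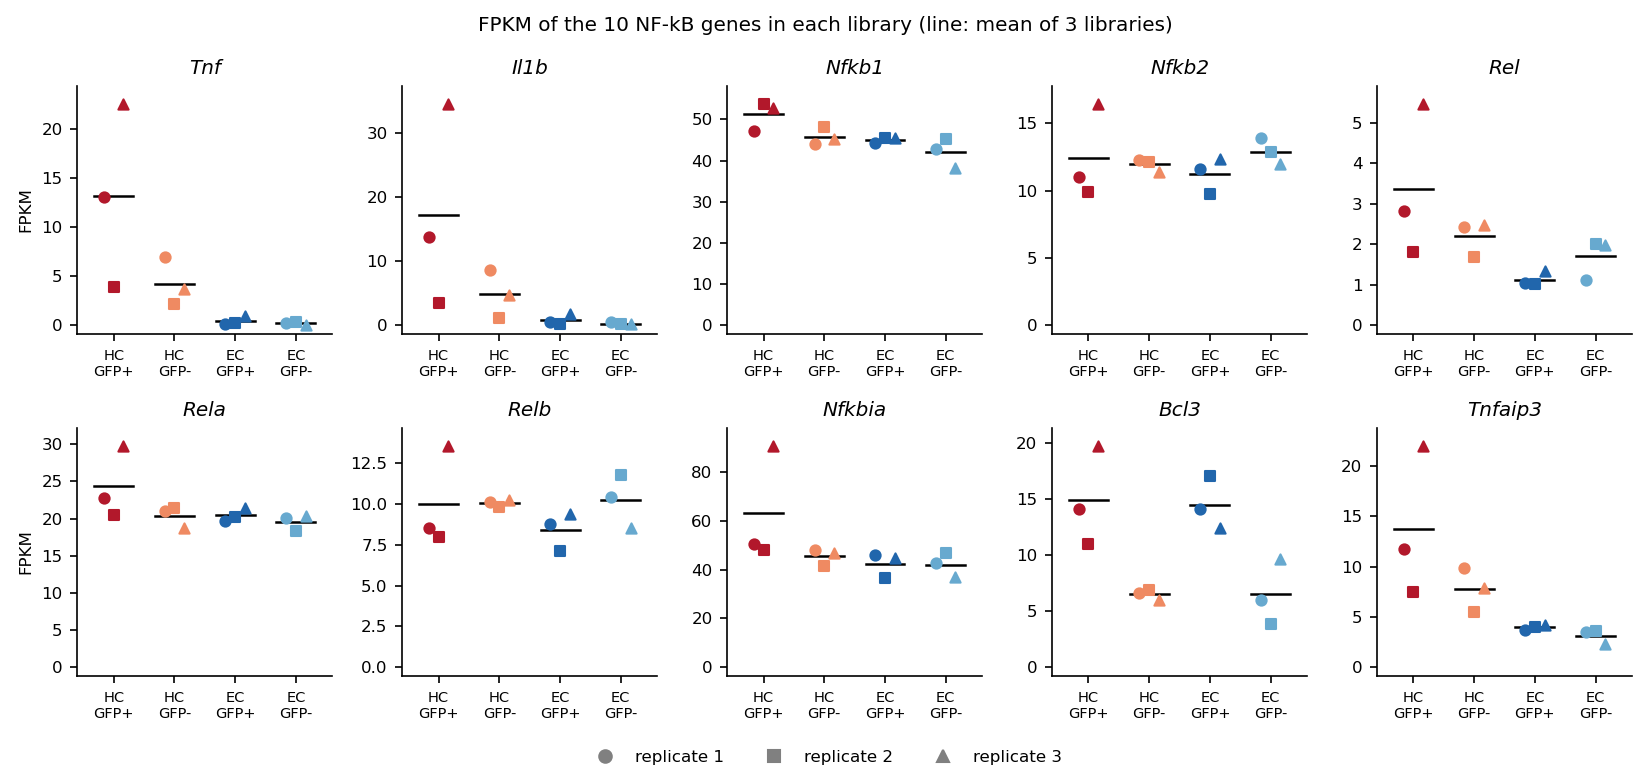
Level of each of the 10 genes in FPKM (vertical axis, linear, starting near 0) in the 12 libraries, by population, with a symbol for each replicate and a line at the mean of 3 libraries. Tnf, Il1b and Tnfaip3 stand higher in HC, Bcl3 stands higher in both GFP+ populations, and HC GFP+ replicate 3 is the highest library for 9 of the 10 genes.

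The DNA just before the start of these genes is shown because NF-kB genes are known for feedback through binding sites in their own promoters. Promoter sequences from RefSeq (build GRCm38.p6, while the values use build mm9) matched 8 of the 10 genes by symbol, with 11 promoters in all, and Nfkb1 and Relb had no entry. The 250 bases before each start were searched on both strands for the kB consensus, the DNA motif that NF-kB dimers bind. It was written as GGGRNNYYCC, where R is A or G, Y is C or T and N is any base. It was present before 6 of the 11 starts, in Nfkb2, Rel, Nfkbia and Tnfaip3, while 7.25% of all 32851 mouse promoters of that length hold it (2382 promoters). Of the 6 starts, 3 belong to Nfkb2, and the windows of its starts 2 and 3 overlap. By gene, 4 of the 8 held a match. The genes were chosen as parts of the NF-kB system, so these shares are not a test. Matches in a promoter may overlap each other and are counted separately. A match is a description of letters and not a measured binding site. In the sequences that follow, written 5′ to 3′ on the strand of the gene and ending at the base before the start, capitals mark matches to the consensus. The 5 shown are those of the genes with the largest HC to EC differences and of the inhibitor Nfkbia, at chr17:35202008-35202257 for Tnf, chr2:129371140-129371389 for Il1b, chr11:23770970-23771219 for Rel, chr12:55492648-55492897 for Nfkbia and chr10:19015411-19015660 for the first of the listed Tnfaip3 starts, all on the minus strand.
Tnf: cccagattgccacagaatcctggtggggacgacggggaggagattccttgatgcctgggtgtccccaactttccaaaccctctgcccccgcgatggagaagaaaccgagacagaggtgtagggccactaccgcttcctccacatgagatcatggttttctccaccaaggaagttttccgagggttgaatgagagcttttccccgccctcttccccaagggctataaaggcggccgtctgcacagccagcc
Il1b: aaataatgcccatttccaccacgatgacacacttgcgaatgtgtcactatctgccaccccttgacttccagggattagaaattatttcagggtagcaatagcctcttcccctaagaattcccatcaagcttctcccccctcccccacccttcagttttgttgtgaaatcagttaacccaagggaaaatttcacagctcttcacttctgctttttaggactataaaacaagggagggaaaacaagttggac
Rel: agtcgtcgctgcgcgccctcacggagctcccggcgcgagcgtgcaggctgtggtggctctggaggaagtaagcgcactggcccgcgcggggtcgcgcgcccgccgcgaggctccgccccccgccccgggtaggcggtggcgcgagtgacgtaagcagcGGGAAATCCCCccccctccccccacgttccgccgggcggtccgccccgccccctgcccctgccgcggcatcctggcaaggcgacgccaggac
Nfkbia: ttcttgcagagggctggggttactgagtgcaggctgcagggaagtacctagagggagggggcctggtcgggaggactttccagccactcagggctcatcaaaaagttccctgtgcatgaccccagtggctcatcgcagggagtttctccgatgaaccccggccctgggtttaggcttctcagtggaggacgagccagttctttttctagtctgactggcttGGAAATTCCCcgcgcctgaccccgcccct
Tnfaip3: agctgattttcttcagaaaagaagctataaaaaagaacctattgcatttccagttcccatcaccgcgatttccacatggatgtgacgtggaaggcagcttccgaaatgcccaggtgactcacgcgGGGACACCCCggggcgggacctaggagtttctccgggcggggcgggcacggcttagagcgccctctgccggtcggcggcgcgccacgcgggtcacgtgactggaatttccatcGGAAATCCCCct
The Tnfaip3 window held GGGACACCCC 125 to 116 bases before the start and GGAAATCCCC 12 to 3 bases before it. The Rel window held GGGAAATCCC, 92 to 83 bases before the start, and GGAAATCCCC, which overlaps it, 91 to 82 bases before the start. The Nfkbia window held GGAAATTCCC 29 to 20 bases before the start. The Tnf and Il1b windows, for the genes with the largest differences, held no match, which says only that these letters are not in these 250 bases.

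Tnf encodes tumor necrosis factor, an inflammatory cytokine made chiefly by macrophages that activates NF-kB through its receptors. Tnf measured 13.1, 3.85 and 22.6 FPKM in HC GFP+ libraries, against 6.91, 2.12 and 3.65 FPKM in HC GFP- libraries. In EC GFP+ libraries it was at 0.149, 0.240 and 0.925 FPKM, and in EC GFP- libraries at 0.225 and 0.311 FPKM, with the third listed at 0. Every HC library stood above every EC library, and the HC populations overlapped, as HC GFP+ replicate 2 fell between HC GFP- values. Between HC GFP+ and EC GFP+ the log2 fold change was 3.07 ± 0.504 (SE, n = 3 each, limma adjusted p = 0.00245), past the threshold whichever library was left out. For HC GFP- against EC GFP- it was 2.05 ± 0.504 (SE, n = 3 each, limma adjusted p = 0.0453). This second call was lost when any of 9 of the 12 libraries was left out, with log2 fold changes of 1.70 to 2.37, and adjusted p = 0.0991 with no filter on low values. The 9 were all libraries other than HC GFP+ replicates 2 and 3 and HC GFP- replicate 2. Between HC GFP+ and HC GFP- it was 1.27 ± 0.504 (SE, n = 3 each, limma adjusted p = 0.222), and this difference passed only without HC GFP+ replicate 2 (1.91, adjusted p = 0.0269) and was 0.77 without HC GFP+ replicate 3.

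Il1b encodes interleukin-1 beta, a second inflammatory cytokine of myeloid cells and a textbook NF-kB target. Il1b measured 13.7, 3.49 and 34.5 FPKM in HC GFP+ libraries, against 8.53, 1.14 and 4.70 FPKM in HC GFP- libraries. It was at 0.487, 0.121 and 1.67 FPKM in EC GFP+ libraries and at 0.452, 0.133 and 0.136 FPKM in EC GFP- libraries. The HC and EC populations did not overlap within either GFP class, though EC GFP+ replicate 3 exceeded HC GFP- replicate 2. Between HC GFP+ and EC GFP+ the log2 fold change was 3.01 ± 0.692 (SE, n = 3 each, limma adjusted p = 0.0142), and the call was lost without EC GFP+ replicate 2 (2.74, adjusted p = 0.0571). The HC GFP- to EC GFP- value was 1.99 ± 0.692 (SE, n = 3 each, limma adjusted p = 0.142). The HC GFP+ to HC GFP- value was 1.44 ± 0.692 (SE, n = 3 each, limma adjusted p = 0.322), and 0.73 without HC GFP+ replicate 3.

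Of the subunit genes, Nfkb1, which encodes a precursor that is processed to a DNA-binding subunit without an activation domain, was the most abundant. Nfkb1 measured 47.2, 53.8 and 52.9 FPKM in HC GFP+ libraries, against 44.0, 48.2 and 45.3 FPKM in HC GFP- libraries. It was at 44.3, 45.4 and 45.6 FPKM in EC GFP+ libraries and at 42.9, 45.4 and 38.2 FPKM in EC GFP- libraries. HC GFP+ libraries all stood above EC GFP+ and EC GFP- libraries, while neighbours in the order of the Nfkb1 means overlapped. The log2 fold change of HC GFP+ against EC GFP+ was 0.18 ± 0.0797 (SE, n = 3 each, limma adjusted p = 0.169). Nfkb1 made up 51.0% ± 6.24, 50.7% ± 1.51, 52.3% ± 1.93 and 48.7% ± 1.51 (SD, n = 3 each) of the summed FPKM of the 5 subunit genes in HC GFP+, HC GFP-, EC GFP+ and EC GFP- cells.

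Rela, the subunit with the strong activation domain of the classical dimer, was the next in level. Rela measured 22.8, 20.5 and 29.8 FPKM in HC GFP+ libraries, against 21.0, 21.4 and 18.7 FPKM in HC GFP-, 19.7, 20.2 and 21.5 FPKM in EC GFP+ and 20.0, 18.3 and 20.3 FPKM in EC GFP- libraries. Neighbours in the order of the Rela means overlapped, while every HC GFP+ library stood above every EC GFP- library. Nfkb2 and Relb, whose products form the dimer of the alternative pathway, ran at 9.76 to 16.5 FPKM and at 7.12 to 13.6 FPKM over the 12 libraries. Both were highest in HC GFP+ replicate 3, and neighbours in the order of their means overlapped. No difference of Nfkb1, Nfkb2, Rela or Relb passed the threshold in the 4 comparisons between populations. Their log2 fold changes ran between -0.25 and 0.24, and a p that misses the threshold does not show that the levels are alike.

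Rel, which encodes c-Rel, a subunit used mainly in blood cells, was the lowest of the 5. Rel measured 2.83, 1.81 and 5.48 FPKM in HC GFP+ libraries, against 2.44, 1.68 and 2.46 FPKM in HC GFP- libraries. It was at 1.03, 1.01 and 1.33 FPKM in EC GFP+ libraries and at 1.11, 2.02 and 1.98 FPKM in EC GFP- libraries. HC GFP+ libraries all exceeded EC GFP+ libraries, while HC GFP- and EC GFP- libraries overlapped. Between HC GFP+ and EC GFP+ the log2 fold change was 0.96 ± 0.273 (SE, n = 3 each, limma adjusted p = 0.0386). Without HC GFP+ replicate 3 it was 0.63 (adjusted p = 0.106). The call was lost without any of 7 libraries, namely the 3 of EC GFP+, HC GFP+ replicates 1 and 3, and HC GFP- replicates 1 and 3. It was also lost with no filter (adjusted p = 0.0733), after quantile normalization (0.80, adjusted p = 0.0625) and in a fit of only the compared populations (adjusted p = 0.0968). The summed level of the 5 subunit genes was 101.5 ± 14.5 FPKM in HC GFP+, 90.4 ± 2.57 FPKM in HC GFP-, 86.3 ± 3.38 FPKM in EC GFP+ and 86.5 ± 4.92 FPKM in EC GFP- cells (SD, n = 3 each).

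Nfkbia encodes IkB-alpha, the inhibitor that retains dimers in the cytoplasm and is itself induced by them. Nfkbia measured 50.4, 48.2 and 90.7 FPKM in HC GFP+ libraries, against 47.9, 41.6 and 46.8 FPKM in HC GFP- libraries. It was at 46.1, 36.5 and 44.7 FPKM in EC GFP+ libraries and at 42.7, 46.7 and 36.8 FPKM in EC GFP- libraries. HC GFP+ stood above HC GFP- and EC GFP+ without overlap, by a wide margin only in replicate 3. The log2 fold change was 0.41 ± 0.204 for HC GFP+ against HC GFP- (SE, n = 3 each, limma adjusted p = 0.345), and 0.12 without HC GFP+ replicate 3. For HC GFP+ against EC GFP+ it was 0.51 ± 0.204 (SE, n = 3 each, limma adjusted p = 0.130), and 0.22 without HC GFP+ replicate 3.

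Tnfaip3 encodes a ubiquitin-editing enzyme that shuts off signalling from TNF and interleukin-1 receptors. Tnfaip3 measured 11.7, 7.44 and 22.0 FPKM in HC GFP+ libraries, against 9.90, 5.46 and 7.92 FPKM in HC GFP- libraries. It was at 3.75, 4.02 and 4.20 FPKM in EC GFP+ libraries and at 3.49, 3.56 and 2.33 FPKM in EC GFP- libraries. Each HC library exceeded each EC library. Between HC GFP+ and EC GFP+ the log2 fold change was 1.44 ± 0.311 (SE, n = 3 each, limma adjusted p = 0.0104), kept whichever library was left out. In HC GFP- against EC GFP- it was 1.07 ± 0.311 (SE, n = 3 each, limma adjusted p = 0.0839), and the adjusted p was 0.0378 without HC GFP+ replicate 2 and 0.0235 without HC GFP+ replicate 3. The HC GFP+ to HC GFP- value was 0.66 ± 0.311 (SE, n = 3 each, limma adjusted p = 0.312), and 0.28 without HC GFP+ replicate 3.

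Bcl3 encodes a nuclear member of the inhibitor family that binds dimers on DNA and can raise or lower transcription. Bcl3 measured 14.04, 10.96 and 19.7 FPKM in HC GFP+ libraries, against 6.61, 6.83 and 6.02 FPKM in HC GFP- libraries. It was at 14.1, 17.0 and 12.4 FPKM in EC GFP+ libraries, against 6.00, 3.81 and 9.64 FPKM in EC GFP- libraries. In both cell types every GFP+ library lay above every GFP- library, and HC and EC of the same GFP class overlapped. Between EC GFP+ and EC GFP- the log2 fold change was 1.11 ± 0.265 (SE, n = 3 each, limma adjusted p = 0.0190), and mean levels differed 2.23-fold. The call was lost without EC GFP+ replicate 1 (1.13, adjusted p = 0.0534), EC GFP+ replicate 2 (adjusted p = 0.0657) or EC GFP- replicate 1 (1.10, adjusted p = 0.0534), and in a fit of EC libraries only (adjusted p = 0.0658). The HC GFP+ to HC GFP- value was 1.05 ± 0.265 (SE, n = 3 each, limma adjusted p = 0.0504, unadjusted p = 0.00217), and mean levels differed 2.30-fold. This difference passed when libraries were scaled to an equal sum (1.09, adjusted p = 0.0241), after quantile normalization (1.04, adjusted p = 0.0468) and in a fit of HC libraries only (adjusted p = 0.0449). It also passed without EC GFP- replicate 2, EC GFP- replicate 3 or HC GFP+ replicate 2 (1.24). The GFP effect in HC minus that in EC was -0.062 ± 0.375 (SE, limma adjusted p = 0.974). Other marker lists differed with GFP as well. Of 9 erythroid markers, 9 were called lower in HC GFP+ than in HC GFP- and 8 lower in EC GFP+ than in EC GFP-, with sums of 839.4 to 1169 FPKM in HC GFP+, 6413 to 9811 FPKM in HC GFP-, 958.4 to 2441 FPKM in EC GFP+ and 3367 to 7826 FPKM in EC GFP- libraries. Of 8 blood progenitor markers, 6 were called higher in HC GFP+ than in HC GFP- and 3 higher in EC GFP+ than in EC GFP-. Their sums were 129.2 to 158.4 FPKM in HC GFP+, 56.5 to 64.8 FPKM in HC GFP-, 62.4 to 74.6 FPKM in EC GFP+ and 41.7 to 51.8 FPKM in EC GFP- libraries. Of 10 endothelial markers, 1 was called higher in HC GFP+ and 7 in EC GFP+ than in their GFP- counterparts. Of 5 tested granulocyte markers, 3 were called higher in HC GFP+ than in HC GFP- and 0 in EC GFP+ against EC GFP- (2 with an unadjusted p under 0.05). Granulocyte sums over 10 genes were 39.4 to 58.8 FPKM in HC GFP+, 14.03 to 19.2 FPKM in HC GFP-, 5.27 to 10.3 FPKM in EC GFP+ and 4.98 to 13.2 FPKM in EC GFP- libraries, with 1, 0, 2 and 2 of the genes listed at 0 throughout those populations. Of 11 smooth muscle and mesenchyme markers, 0 were called in HC GFP+ against HC GFP- (median log2 fold change -0.80, 4 with an unadjusted p under 0.05) and 1, lower, in EC GFP+ against EC GFP- (median -0.92). Their sums overlapped, at 224.3 to 484 FPKM in HC GFP+, 376.1 to 1106 FPKM in HC GFP-, 238.4 to 447.5 FPKM in EC GFP+ and 248.3 to 1052 FPKM in EC GFP- libraries. None of the erythroid, progenitor, endothelial or mesenchyme markers was listed at 0 in all libraries of a population, and the part of these cells in the Bcl3 difference was not tested. Bcl3 overlaps Gm16175, an antisense gene that reached 3.09 FPKM, Nfkb2 overlaps Psd on the opposite strand, which reached 7.29 FPKM, and Il1b overlaps the antisense gene Il1bos (GENCODE annotation). The strand setting of the counting is not given in the sources used here, so reads of such pairs may not be told apart.

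**Figure D2:**
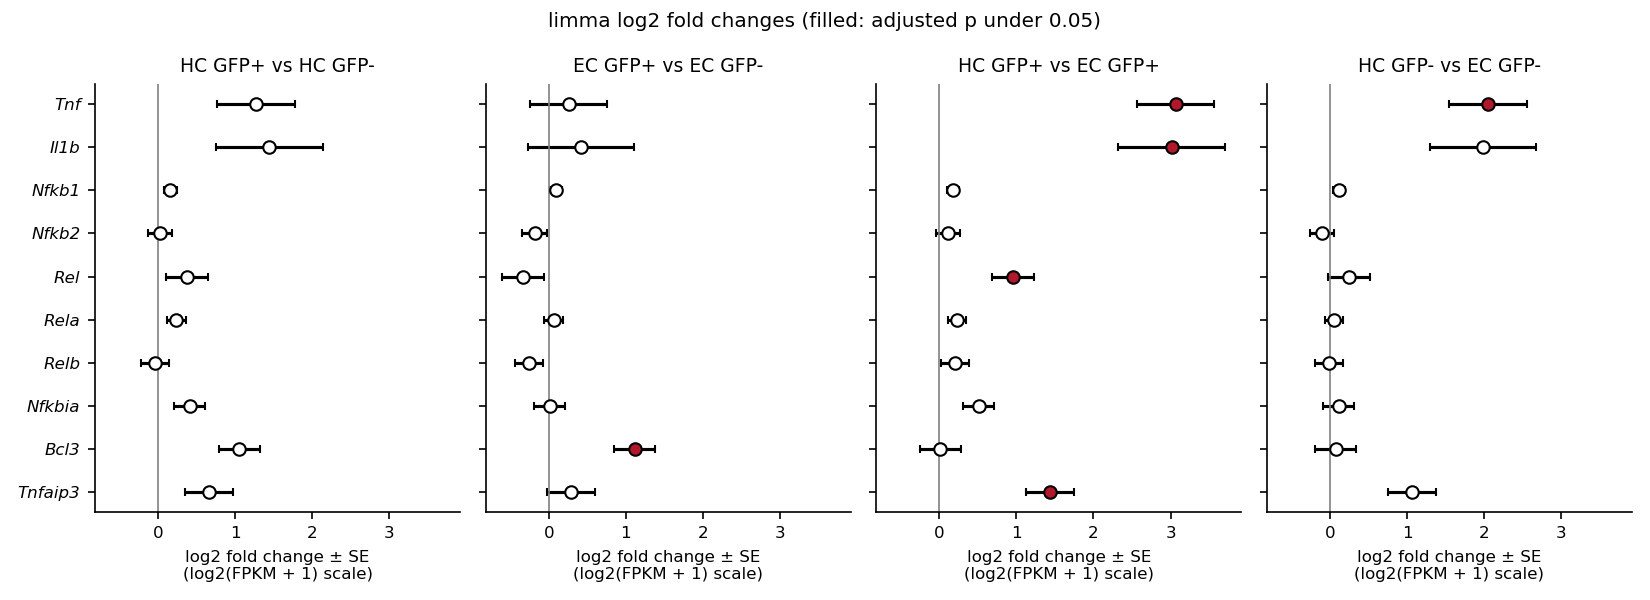
log2 fold change with its SE (horizontal axis, log2(FPKM + 1) scale) of the 10 genes in 4 comparisons, from limma over 12 libraries, with filled points for an adjusted p under 0.05. Filled points are Bcl3 in EC GFP+ against EC GFP-, Tnf, Il1b, Rel and Tnfaip3 in HC GFP+ against EC GFP+, and Tnf in HC GFP- against EC GFP-.

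Among the 10 genes, none was called in HC GFP+ against HC GFP-, where 4.26% of the tested genes were called, 2.98% higher and 1.28% lower. Under an unadjusted p of 0.05, 2 of them passed there, Tnf and Bcl3. The share of all genes under that cut was not computed, so these 2 cannot be set beside it. In EC GFP+ against EC GFP- 1 of the 10, Bcl3, was called, where 13.5% of all genes were, 6.96% higher and 6.51% lower. In HC GFP+ against EC GFP+ 4 of the 10 were called, all higher, where 8.21% of all genes were called higher and 6.09% lower. Tnf and Il1b, among these 4, passed the filter only through HC libraries, where they are high. Their part in that count is thus no evidence of its own. A single member of the 10, Tnf, was called in HC GFP- against EC GFP-, where 4.29% of all genes were, 2.36% higher and 1.93% lower. For the GFP effect in HC minus the one in EC, 0 of the 10 were called and 0 had an unadjusted p under 0.05, where 0.527% of all genes were called, 0.188% above 0 and 0.339% below. HC GFP+ did not overlap with HC GFP- for 2 of the 10 genes, both higher, against 13% of all genes higher and 10.5% lower. HC GFP+ did not overlap with EC GFP+ for 6 of the 10 genes, all higher, against 19.6% of all genes higher and 13.8% lower. The counts were 2 of 10, against 14.8% of all genes, for EC GFP+ higher than EC GFP- (16.7% lower), and 3 of 10, against 13.4%, for HC GFP- higher than EC GFP- (10.4% lower). Tnf and Il1b also stand among the 6 and the 3 of the HC to EC counts, and Tnf is the HC GFP- call. The same limit from the filter holds there.

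The shares above depend on how libraries are scaled. When the FPKM of each library were scaled to the same sum, 87.0% of calls in EC GFP+ against EC GFP- were higher, against 51.6% in the values as deposited, and in HC GFP- against EC GFP- 81.8% against 55.0%. For the difference of GFP effects the share was 18.9% with that scaling and 23.6% after quantile normalization, against 35.7%. In HC GFP+ against EC GFP+ quantile normalization gave 47.3% against 57.4%. The median log2 fold change of all genes moved by equal sums to 0.14 in EC GFP+ against EC GFP- and in HC GFP- against EC GFP-, against -0.034 and 0.014 in the deposited values.

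Macrophage and monocyte markers, like Tnf, Il1b and Tnfaip3, stood higher in HC than in EC libraries of the same GFP class. The summed level of 16 marker genes, among them Csf1r, C1qa and Lyz2, was 926.5, 329.3 and 1869 FPKM in HC GFP+ libraries, against 1038, 319.7 and 839.2 FPKM in HC GFP- libraries. It was 23.1, 18.5 and 44.7 FPKM in EC GFP+ libraries and 16.2, 20.3 and 24.9 FPKM in EC GFP- libraries. All 16 were called higher in HC GFP+ than in EC GFP+ and 15 of 16 in HC GFP- than in EC GFP-, with median log2 fold changes of 4.09 and 3.91. Of all tested genes 8.21% and 2.36% were called higher in these comparisons. Cx3cr1, Emr1, Fcgr1, Itgam and Timd4 had fewer than 3 EC libraries at FPKM 1 and passed the filter through HC libraries. Their calls are thus no evidence of their own. None of the 16 was called between HC GFP+ and HC GFP- (median 0.41, 2 with an unadjusted p under 0.05), and none between EC GFP+ and EC GFP- (1 with an unadjusted p under 0.05), in the same limma fit. None of the marker genes was listed at 0 in all libraries of any population. Ranked over the 6 HC libraries, Il1b and Tnfaip3 each held the same rank as the marker sum in 4 libraries, and Tnf in 2. Nfkb2 and Rel each held it in 3, Rela and Nfkbia in 2, Relb and Bcl3 in 1 and Nfkb1 in 0. Such a count does not show how near the other ranks were. Over HC GFP+ replicates 1 to 3 and then HC GFP- replicates 1 to 3, the marker sum ranked 3, 5, 1, 2, 6 and 4. In the same order Tnf ranked 2, 4, 1, 3, 6 and 5, and Rela 2, 5, 1, 4, 3 and 6. The sum of 12 genes raised by tissue dissociation, such as Fos and Jun, was 1107, 964.9 and 1473 FPKM in HC GFP+ libraries, against 987.2, 790.2 and 858.2 FPKM in HC GFP- libraries, and Tnf ranked the 6 HC libraries in the same order as that sum. In EC it was 809.4 to 963.3 FPKM in EC GFP+ and 651 to 724.7 FPKM in EC GFP- libraries. The part of either list in the differences of the cytokine genes was not tested.

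Per 100 FPKM of summed macrophage markers, a ratio chosen after the values were seen and given without a test, Tnf measured 1.41, 1.17 and 1.21 FPKM in HC GFP+ libraries, against 0.665, 0.662 and 0.435 FPKM in HC GFP- libraries. Il1b measured 1.48, 1.06 and 1.85 FPKM in HC GFP+ libraries, against 0.821, 0.357 and 0.560 FPKM in HC GFP- libraries on the same basis. For these 2 genes the ratio in HC GFP+ did not overlap with that in HC GFP-. The share of all genes whose ratio would not overlap was not computed. For unscaled levels, 13% of all tested genes stood higher in HC GFP+ than in HC GFP- without overlap. In EC the ratio of Tnf to the macrophage markers was 0.645 to 2.07 FPKM in EC GFP+ and 0 to 1.53 FPKM in EC GFP- libraries, which spans the HC values. That of Il1b was 0.653 to 3.74 FPKM in EC GFP+ and 0.548 to 2.78 FPKM in EC GFP- libraries. Per 100 FPKM of the dissociation genes the HC populations overlapped, with 1.18, 0.399 and 1.53 FPKM of Tnf in HC GFP+ and 0.699, 0.268 and 0.426 FPKM in HC GFP- libraries. The ratio of Il1b to those genes overlapped as well, with 1.24, 0.362 and 2.35 FPKM in HC GFP+ and 0.864, 0.144 and 0.547 FPKM in HC GFP- libraries. In EC the ratio of Tnf to the dissociation genes was 0.0184 to 0.105 FPKM in EC GFP+ and 0 to 0.0429 FPKM in EC GFP- libraries, below every HC value. That of Il1b was 0.0126 to 0.190 FPKM in EC GFP+ and 0.0184 to 0.0694 FPKM in EC GFP- libraries. For Tnfaip3 the ratio to the macrophage markers overlapped, with 1.27, 2.26 and 1.18 FPKM in HC GFP+ and 0.954, 1.71 and 0.943 FPKM in HC GFP- libraries. In EC it was 9.41 to 21.7 FPKM in EC GFP+ and 9.37 to 21.5 FPKM in EC GFP- libraries, above every HC value. Bcl3 held the rank of the macrophage sum in 1 of the 6 HC libraries, and within HC GFP+ both were highest in replicate 3 and lowest in replicate 2.

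**Figure D3:**
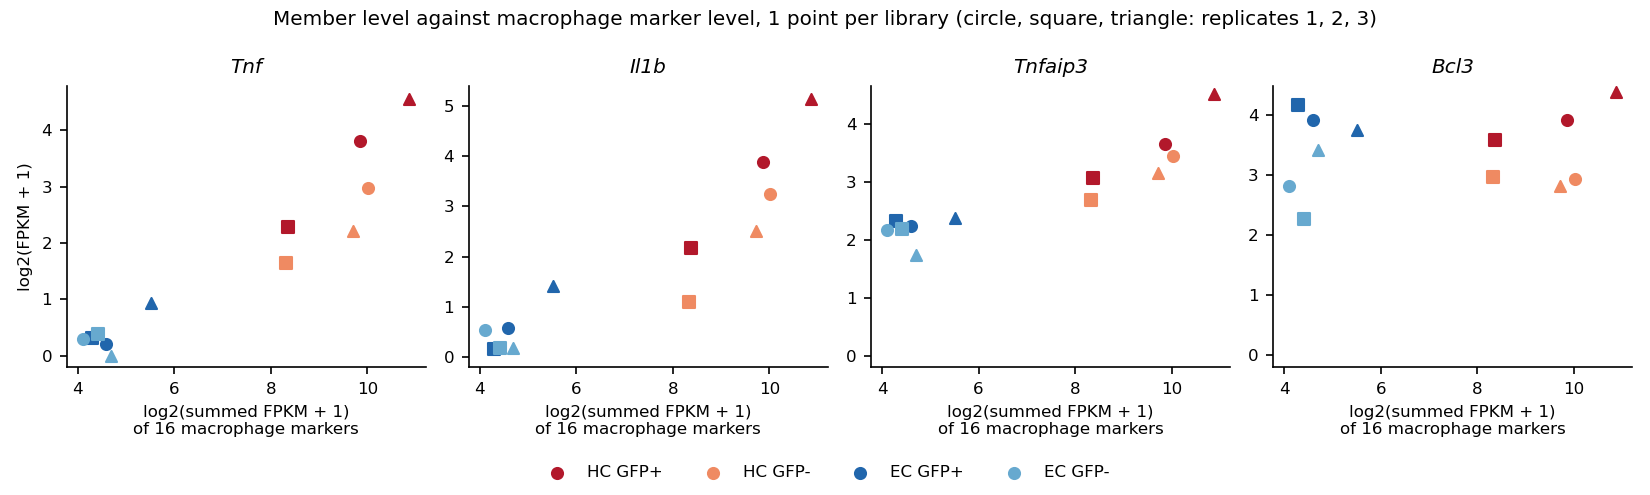
log2(FPKM + 1) of Tnf, Il1b, Tnfaip3 and Bcl3 (vertical axis) against the log2 of the summed FPKM plus 1 of 16 macrophage markers (horizontal axis), with 1 point per library coloured by population and shaped by replicate. The EC libraries lie at the low end of the marker sum, HC libraries at the high end, and HC GFP+ replicate 3 is at the top of both axes for each of the 4 genes.

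The genes most like the members over the 12 libraries were found by Pearson's r of log2(FPKM + 1). The search took the tested genes, leaving out clone, gene model and accession-like symbols. It is a description in which the points share libraries and the HC and EC populations form separate clusters. For Tnf they were Ccdc88b (r = 0.993), Cxcl2 (0.989), a neutrophil-attracting chemokine, and Itgam (0.988), the integrin subunit CD11b of myeloid cells. For Il1b they were Mcoln2 (0.986), Prkcd (0.985) and Nlrp3 (0.985), the sensor of an inflammasome. For Tnfaip3 they were Hcls1 (0.983), a protein of hematopoietic cells, Tnf (0.981) and Siglec1 (0.980), a macrophage receptor. For Bcl3 they were Glb1 (0.962), the lysosomal beta-galactosidase, Hsd17b11 (0.962) and Gsto1 (0.945), a glutathione transferase. Glb1, chosen for its likeness to Bcl3, averaged 25.6 ± 3.69 FPKM in HC GFP+ and 20.0 ± 0.838 FPKM in HC GFP-, and 24.8 ± 2.96 FPKM in EC GFP+ and 18.4 ± 3.06 FPKM in EC GFP- cells (SD, n = 3 each). Within the members, r was 0.982 between Tnf and Il1b, 0.981 between Tnf and Tnfaip3, 0.90 between Nfkb2 and Relb and -0.31 between Bcl3 and Relb.

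The wider pathway list holds 93 genes (10 ligands, 14 receptors, 22 adaptors and kinases, 5 subunits, 16 inhibitors and 26 other targets), the 10 members among them, and 79 were tested. In HC GFP+ against EC GFP+ 25 of the 79 were called higher and 3 lower, with a median log2 fold change of 0.21, against 0.052 over all tested genes and 14.3% of these called. The filter bears on these counts: 12 of the 79 genes passed it through HC libraries, with fewer than 3 EC libraries at FPKM 1, and 10 of those 12 were among the 25, against 15 of the other 67. The 10 include Tnf, Il1b, Cxcl2, Il18, Irak3 and Selp. Of the ligands, 5 of 6 tested were higher, but 5 of the 6 had passed the filter through HC, so that share is no evidence of its own. Of the receptors 4 of 11 were higher and 2 lower, and of the adaptors and kinases 4 of 22 were higher. Of the inhibitors 2 of 15 were higher, and of the other targets 9 of 20 were higher and 1 lower. Among those with the smallest p, Ltb, which encodes lymphotoxin beta, averaged 7.48 ± 1.16 FPKM in HC GFP+ and 1.79 ± 0.274 FPKM in EC GFP+ cells (SD, n = 3 each), a log2 fold change of 1.60. Cxcl2 averaged 36.4 ± 25.8 FPKM in HC GFP+ and 1.45 ± 0.787 FPKM in EC GFP+ cells (SD, n = 3 each), a log2 fold change of 3.71. Irak3, which restrains interleukin-1 receptor signalling, rose by 1.34, Selp, the adhesion protein P-selectin, by 1.17, and the cytokine gene Il18 by 1.92 on the log2 scale. Lower in HC GFP+ were the receptor genes Cd40 (-0.81) and Ltbr (-0.41) and the target Tnfaip2 (-0.42). Of these 8 genes, Ltbr lost its call without EC GFP+ replicate 1, EC GFP+ replicate 2 or HC GFP+ replicate 1 (-0.46 to -0.38 over all left-out libraries), and Tnfaip2 without any of 7 libraries (-0.49 to -0.31).

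In HC GFP- against EC GFP- 4 of the 79 were higher and 2 lower, where 4.29% of all tested genes were called (2.36% higher and 1.93% lower), with a median of 0.11 against 0.014 over all tested genes, and under equal sums 7 were higher and 0 lower. Higher were Cxcl2 (log2 fold change 2.99), the protease gene Plau (0.79), the receptor gene Tnfrsf11a (1.39) and Tnf. Cxcl2 and Tnf passed the filter through HC libraries, with fewer than 3 EC libraries at FPKM 1. Their part in the count is thus no evidence of its own. Lower were Tnfaip2 (-0.55) and Cd40 (-0.71). Each of these calls was lost without at least 3 of the 12 libraries, with log2 fold changes of 2.54 to 3.55 for Cxcl2, 0.66 to 0.88 for Plau, 1.21 to 1.60 for Tnfrsf11a, -0.68 to -0.46 for Tnfaip2 and -0.85 to -0.63 for Cd40.

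In HC GFP+ against HC GFP- 5 of the 79 were higher and 2 lower, where 4.26% of all tested genes were called (2.98% higher and 1.28% lower), with a median of 0.24 against 0.0014 over all tested genes, and under equal sums 8 were higher and 1 lower. Selp averaged 2.53 ± 0.561 FPKM in HC GFP+ and 0.112 ± 0.0403 FPKM in HC GFP- cells (SD, n = 3 each), a log2 fold change of 1.66. Irak3 averaged 2.89 ± 0.746 FPKM in HC GFP+ and 0.640 ± 0.152 FPKM in HC GFP- cells (SD, n = 3 each), a log2 fold change of 1.23. Both calls held whichever library was left out, but both genes reached FPKM 1 only in the 3 HC GFP+ libraries and so entered the test through the group where they are high. The other 3 higher genes were the growth factor gene Csf1 (0.54), Tnfaip2 (0.49) and the receptor gene Il1r1 (0.51), and the lower ones were the nitric oxide synthase gene Nos2 (-0.80) and Plau (-0.68). Leaving out 1 library ended the call without 5, 10, 11, 4 and 7 of the 12 libraries for Csf1, Tnfaip2, Il1r1, Nos2 and Plau.

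In EC GFP+ against EC GFP- 7 of the 79 were higher and 4 lower, where 13.5% of all tested genes were called (6.96% higher and 6.51% lower), close to the 11 of 79 here, with a median of 0.055 against -0.034 over all tested genes, and under equal sums 14 were higher and 2 lower. Icam1, an adhesion molecule of activated endothelium, was at 69.1 FPKM in EC GFP+ and 41.0 FPKM in EC GFP- cells on average, a log2 fold change of 0.75. The survival gene Bcl2l1 (0.52), Csf1 (0.57), the Tnfaip3-binding inhibitor gene Tnip2 (0.84), Bcl3 and the TNF receptor gene Tnfrsf1a (0.33) were higher, as was Il1r1 (0.47). Nos2 (-0.94), Ltb (-0.74), Plau (-0.62) and the inhibitor gene Commd1 (-0.45) were lower. The calls of Icam1, Bcl2l1, Csf1 and Nos2 held whichever library was left out, though that of Csf1 was lost in a fit of EC libraries only (adjusted p = 0.0608). Those of Tnip2, Tnfrsf1a, Ltb, Plau, Commd1 and Il1r1 were lost without 2, 5, 3, 4, 8 and 8 of the 12 libraries.

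**Figure D4:**
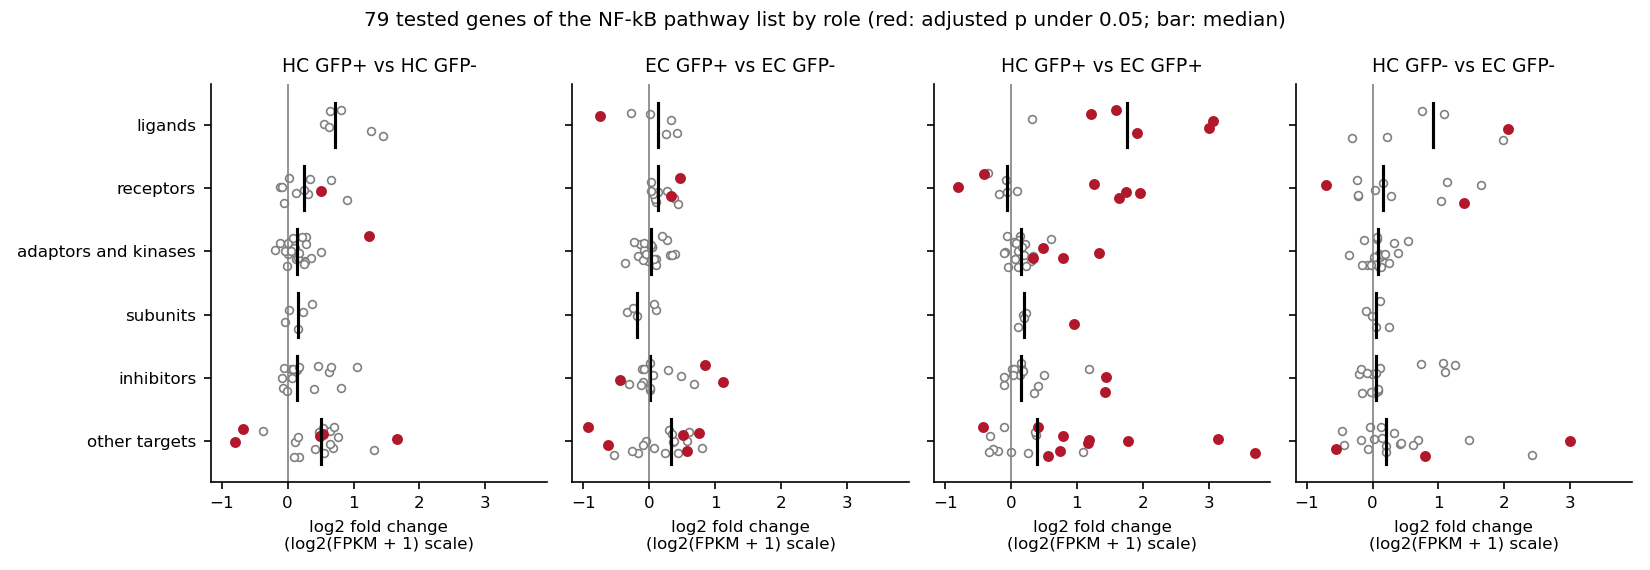
log2 fold changes (horizontal axis, log2(FPKM + 1) scale) of the 79 tested genes of the pathway list, grouped by role, in 4 comparisons, with red points for an adjusted p under 0.05 and a bar at the median of each role. The HC GFP+ against EC GFP+ panel has the most red points, 28, and 5 of the 6 ligands there are red and to the right of 0, of which 4 passed the filter through HC libraries.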

How the data were processed

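RNA was measured in 12 libraries, 3 from each of 4 sorted populations, with groups and replicate numbers read from the sample titles. Per the labels' protocols, cells were sorted into TRIzol-LS after collagenase, and libraries were made from poly(A) RNA with an NEBNext Ultra kit. The authors deposited FPKM values, 1 per gene symbol in each library. The build was mm9, and the tools Cufflinks, featureCounts, edgeR and DESeq were used, per the submitters' processing notes. The sources used here do not give their roles and versions, the aligner, the annotation or the strand setting. FPKM keeps no absolute depth, so no interval for counting error is given and no count test was run.

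The 13278 genes with FPKM of 1 or more in 3 libraries were tested as log2(FPKM + 1) in R 4.3.3 with limma 3.58.1. A single model of the 4 populations, with 8 residual degrees of freedom, used all 12 libraries, an intensity trend and empirical Bayes moderation. Tests were two-sided, and p-values were adjusted (Benjamini-Hochberg) over the tested genes in each of 5 comparisons. The fit was tested on simulated data. The members and lists were chosen with earlier results of these data known. The pathway genes named were, in each comparison, up to 6 called genes in each direction with the smallest p, and Il1r1 in EC, added after the values were seen. The genes of likeness were the 3 with the highest r for each of the 4 members with the largest change. Alternatives were a pseudocount of 0.1, no filter, a filter at mean FPKM 5, equal sums, quantile normalization, a replicate block, fits of only the compared groups, and leaving out each library. The labels call the pools independent biological samples, and the p-values take them as such. Whether pools of different populations share embryos is not stated. Replicate 2 had the lowest sum of smooth muscle and mesenchyme markers in each of the 4 populations. Deviations from the population mean were correlated between same-numbered libraries. For replicate 2 the correlation was 0.27 between HC GFP+ and HC GFP- and 0.2 between HC GFP- and EC GFP-. It was 0.0618 between HC GFP+ and EC GFP+ and -0.0308 between EC GFP+ and EC GFP-. Such values do not identify the embryos of a pool.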

Additional observations from a re-analysis of the deposited data

Results flagged for a closer look

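Ltb, the gene for lymphotoxin beta, had GFP differences of opposite sign in the 2 cell types, and a test of the difference between them passed the threshold. Ltb measured 6.23, 8.53 and 7.69 FPKM in HC GFP+ libraries, against 3.47, 5.58 and 4.39 FPKM in HC GFP- libraries. It measured 1.58, 2.10 and 1.70 FPKM in EC GFP+ libraries, against 3.22, 3.16 and 4.75 FPKM in EC GFP- libraries. GFP+ stood above GFP- without overlap in HC, where the log2 fold change of 0.64 missed the threshold (limma adjusted p = 0.0869). GFP+ stood below GFP- without overlap in EC, where the log2 fold change of -0.74 passed it (limma adjusted p = 0.0228). The GFP effect in HC minus that in EC was 1.38 ± 0.260 on the log2 scale (SE, limma adjusted p = 0.0476 over all tested genes). The call was lost with a pseudocount of 0.1 (adjusted p = 0.0611), with no filter (adjusted p = 0.0898) and after quantile normalization (1.32, adjusted p = 0.0694). It was also lost without any of 11 of the 12 libraries, all but HC GFP- replicate 2, with values of 1.23 to 1.52.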

How the results depend on the processing

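Counts of calls are given in the order genes, members, pathway list genes, in place of 566, 0 and 7 for HC GFP+ against HC GFP-, 1789, 1 and 11 for EC GFP+ against EC GFP-, 1898, 4 and 28 for HC GFP+ against EC GFP+, 569, 1 and 6 for HC GFP- against EC GFP-, and 70, 0 and 1 for the difference of GFP effects. Leaving out 1 library gave 321 to 654, 0 to 2 and 2 to 9 for HC GFP+ against HC GFP-, 1004 to 2203, 0 to 1 and 5 to 13 for EC GFP+ against EC GFP-, and 1261 to 2090, 2 to 4 and 16 to 29 for HC GFP+ against EC GFP+. It gave 91 to 698, 0 to 2 and 0 to 11 for HC GFP- against EC GFP-, and 23 to 77, 0 and 0 to 1 for the difference of GFP effects. In HC GFP+ against HC GFP-, 363 genes and 3 pathway genes were called with the stricter filter, 4 pathway genes with no filter and 4 in a fit of HC only, and 1 member with equal sums, quantile normalization or that fit. A fit of EC only called 939 genes, 0 members and 5 pathway genes. In HC GFP+ against EC GFP+ the stricter filter called 2 members and 17 pathway genes, and a fit of those populations 17 pathway genes. In HC GFP- against EC GFP- no filter called 332 genes, 0 members and 2 pathway genes, the stricter filter 0 members, and a fit of those populations 284 genes. For the difference of GFP effects 39 genes and 0 pathway genes were called with a pseudocount of 0.1 and with the stricter filter, 148 and 2 with equal sums, 2 pathway genes with no filter and 0 after quantile normalization. The stricter filter tests fewer genes, and left-out fits hold fewer libraries; for the other changes the cause was not tested.

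Directions of uncalled members turned with scaling. With equal sums the log2 fold change was 0.0044 for Nfkb2 in EC GFP+ against EC GFP-, -0.0047 for Bcl3 in HC GFP+ against EC GFP+, 0.029 for Nfkb2 and 0.11 for Relb in HC GFP- against EC GFP-, and -0.095 for Nfkb1 in the difference of GFP effects. With quantile normalization it was -0.028 for Nfkb2 in HC GFP+ against HC GFP-, -0.049 for Bcl3 in HC GFP+ against EC GFP+ and -0.030 for Bcl3 in HC GFP- against EC GFP-. Leaving out 1 library turned Nfkb2 (-0.18 to 0.16) and Relb (-0.26 to 0.090) in HC GFP+ against HC GFP-, and Nfkbia (-0.079 to 0.11) in EC GFP+ against EC GFP-. It turned Nfkb2 (-0.094 to 0.24), Relb (-0.021 to 0.33) and Bcl3 (-0.20 to 0.20) in HC GFP+ against EC GFP+, and Relb (-0.13 to 0.087) and Bcl3 (-0.21 to 0.37) in HC GFP- against EC GFP-. It turned Relb (-0.0088 to 0.34), Bcl3 (-0.35 to 0.22) and Tnfaip3 (-0.011 to 0.71) in the difference of GFP effects. With a replicate block 625, 1784, 1917, 603 and 71 genes and 0, 1, 4, 1 and 0 members were called in the 5 comparisons. Same-numbered libraries correlated at -0.0615 to 0.27 in their deviations, not every library correlated best with its own number, and the numbers are taken as names. Levels of Tnf and Il1b in EC are near 0, where FPKM with no known depth limits precision.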
